A study of Dreissena polymorpha with 11 samples.

Results

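Among the bright EY sequences of a zebra mussel array, the 150 described here are those with the smallest spread of relative signal over larvae, gill, digestive gland, gonads of both sexes and half-body samples. Their highest and lowest arrays lay at most 1.17 log2 units apart, and 48 of them spanned 1 log2 unit, a 2-fold difference, or more. EY sequences are those whose identifier begins with EY, and they make up 2864 of the 3541 sequences on the array. The members were chosen from measured values. Each sequence was represented by its 2 probes with the highest mean log2 signal over 10 arrays, and 2701 EY sequences had at least 2 probes. Signals were put on a common scale by subtracting, on the log2 scale, the array's median over the 1326 EY probes whose processed signal exceeded 1000 on all 10 arrays. Of the 377 sequences with both probes above 1000 on all 10 arrays (called bright here), 245 had a 2-probe mean whose highest and lowest array lay less than 1.5 log2 units apart. A further 6 of these were set aside because larvae, gill or half-body arrays stood more than 0.5 apart from all others, and the 150 of the remaining 239 with the smallest range (highest minus lowest array) were kept. Their steadiness is therefore the criterion of choice and not a finding.

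The zebra mussel Dreissena polymorpha is a freshwater bivalve. Its gill is a ciliated sheet that moves water, traps food particles and exchanges gases, its digestive gland secretes enzymes, absorbs food and stores reserves, and its gonads produce eggs or sperm. Transcripts that keep a similar level across such different tissues are often those of basic cell functions such as translation, energy metabolism and the cytoskeleton, and they are used as a yardstick when other transcripts are compared. The files pair none of the members with a gene. None of the 150 identifiers matched the 51549 genes of the RefSeq table for assembly UMN_Dpol_1.0. No other sequence of the series matched either, so the missing match is not particular to the members. Only identifiers were compared, so it cannot be said whether the assembly holds genes for the members. The members are therefore named by their identifiers and no role is assigned to any of them. Probe sequences were not used here.

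The study measured total RNA of untreated animals by single-dye (Cy3) hybridisation on 11 arrays in 6 groups. Larvae were 24 h old, counted from fertilisation, and had 2 arrays made from 200 ng of RNA each. From 500 ng each came 2 arrays of gill, 2 of digestive gland, 2 of the male gonad, 1 of the female gonad and 2 of half-body samples. The labels do not say which portion of the body the last are. They name no separate animals or cultures behind the replicates either, so the p-values describe only how these arrays vary, which may be technical variation. The labels disagree on sex: 1 field gives a female and a male array each for half-body samples, gill and digestive gland, another gives only females for gill and digestive gland. Gill 1 was the only array on slide 3. Larvae 1, half-body 1, male gonad 1 and digestive gland 1 were on slide 1, and the remaining 6 arrays on slide 2. In bulk samples, fewer cells of a type and less RNA per cell cannot be told apart.

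Larvae 1 stood apart from all other arrays and took no part in the choice of members. Of the 300 member probes, 3 were well above background on larvae 1 by the scanner software's own call, against 300 on each of the other 10 arrays. Over all 13654 probes, 132 were well above background on larvae 1, a similar share. The rule chose probes above 1000 on the other 10 arrays, so the count of 300 there is not a finding. The median processed signal of the member probes was 1.54 on larvae 1, against 32695 on larvae 2. The array's positive control probes, whose names contain E1A and which are not made for a mussel gene, reached a highest median signal of 15245 on larvae 1 and of 41193 to 237541 on the other arrays. The remaining results rest on 10 arrays, with larvae and female gonad represented by 1 array each.

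The members covered a wide span of processed signal, from 1001 to 340977 scanner units over single probes and arrays. Their ranges ran from 0.35 to 1.17 log2 units, with a median of 0.92 and quartiles of 0.79 and 1.05. Over the 227 other bright EY sequences, which the rule left out, the ranges ran from 1.06 to 4.61 with a median of 1.61. A range below 0.5 was held by 7 members, one below 0.75 by 29 and one below 1 by 102.

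The 8 steadiest members spread over less than 0.6 log2 units, so that their highest array was at most 1.48 times as bright as their lowest. On the log2 scale relative to the array's bright EY probes, EY434279 was at 0.67 on larvae 2, 0.85 and 1.01 on gill, 0.74 and 0.67 on digestive gland, 0.89 and 0.85 on male gonad, 0.96 on female gonad and 0.76 and 0.69 on half-body samples. Its range of 0.35, a 1.27-fold span, was the smallest of all members, with gill 2 on top and larvae 2 at the bottom. EY434303, with a range of 0.40, was at -1.34 on larvae 2, -1.24 and -1.51 on gill, -1.64 and -1.52 on digestive gland, -1.37 and -1.26 on male gonad, -1.59 on female gonad and -1.51 and -1.63 on half-body samples. EY434048 was at 1.45 on larvae 2, 1.07 and 1.32 on gill, 1.48 and 1.28 on digestive gland, 1.40 and 1.48 on male gonad, 1.44 on female gonad and 1.15 and 1.47 on half-body samples. In EY434048 the lowest array was gill 1 and the highest digestive gland 1, 0.41 apart, and no group lay outside the span of the others. EY433733 spanned 0.41, with values of 1.503 on larvae 2, 1.39 and 1.62 on gill, 1.77 and 1.36 on digestive gland, 1.64 and 1.52 on male gonad, 1.76 on female gonad and 1.69 and 1.41 on half-body samples. Here both ends of the span belonged to the same group, digestive gland. EY434530 was at 0.90 on larvae 2, 0.96 and 1.04 on gill, 0.83 and 0.75 on digestive gland, 0.80 and 0.83 on male gonad, 1.12 on female gonad and 0.67 and 0.78 on half-body samples, a range of 0.45. EY434679 was at -0.46 on larvae 2, -0.73 and -0.36 on gill, -0.69 and -0.69 on digestive gland, -0.33 and -0.57 on male gonad, -0.64 on female gonad and -0.60 and -0.79 on half-body samples, a range of 0.45. The range of EY436657 was 0.49 and that of EY433842 was 0.56, with male gonad 1 and digestive gland 1 as their highest arrays and larvae 2 and digestive gland 2 as their lowest. In 4 of the 8, namely EY434303, EY434048, EY433733 and EY433842, digestive gland 1 was the highest or lowest array.

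**Figure D1:**
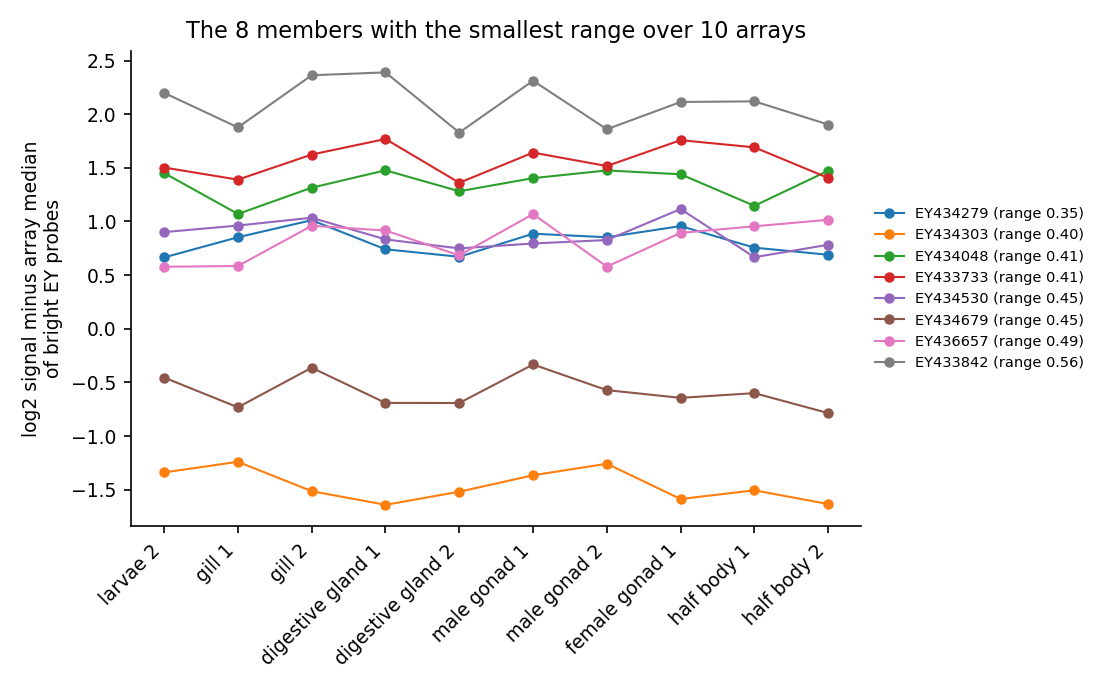
Lines join the values of the 8 steadiest members on each of 10 arrays (horizontal axis), as log2 processed signal of the 2-probe mean minus the array's median over bright EY probes (vertical axis). The lines span from 0.35 for EY434279 to 0.56 for EY433842.

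The limit between members and other sequences ran through a dense part of the ranking. Just inside it were EY436159 with a range of 1.16, EY433647 with 1.16, EY436221 with 1.17 and EY434082 with 1.17. Just outside were EY436980 with 1.17, EY436993 with 1.17, EY436228 with 1.18 and EY436540 with 1.18. EY434082 was at 1.17 on larvae 2, 1.28 and 1.28 on gill, 2.33 and 1.55 on digestive gland, 2.13 and 1.49 on male gonad, 1.85 on female gonad and 1.80 and 1.40 on half-body samples. EY436980 was at 3.58 on larvae 2, 3.20 and 3.31 on gill, 2.89 and 2.41 on digestive gland, 2.88 and 2.48 on male gonad, 2.77 on female gonad and 2.82 and 2.803 on half-body samples. The last member was thus highest on digestive gland 1, while the first sequence outside was highest on larvae 2 and lowest on digestive gland 2. Sequences on either side of the limit differ by thousandths of a log2 unit, so membership near it is a matter of the number kept.

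What moved within the members differed from array to array. Digestive gland 1 was the highest array for 44 of the 150 members, larvae 2 for 25 and female gonad 1 for 21, while digestive gland 2 was the highest for 1. The lowest array was gill 1 for 37 members, larvae 2 for 35 and male gonad 2 for 15. A deviation of more than 0.5 from the member's own mean over 10 arrays was found in 33 members on larvae 2 and 31 on gill 1, against 11 on gill 2, 8 on digestive gland 1, 8 on male gonad 2 and 2 on digestive gland 2. The SD of the deviations was 0.39 on larvae 2 and 0.36 on gill 1, and 0.19 to 0.28 on the other arrays. Larvae 2 and gill 1 were thus the arrays on which members strayed most from their own mean. Larvae 2 has no usable replicate, and gill 1 is alone on its slide, so that its slide and its sample cannot be told apart.

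**Figure D2:**
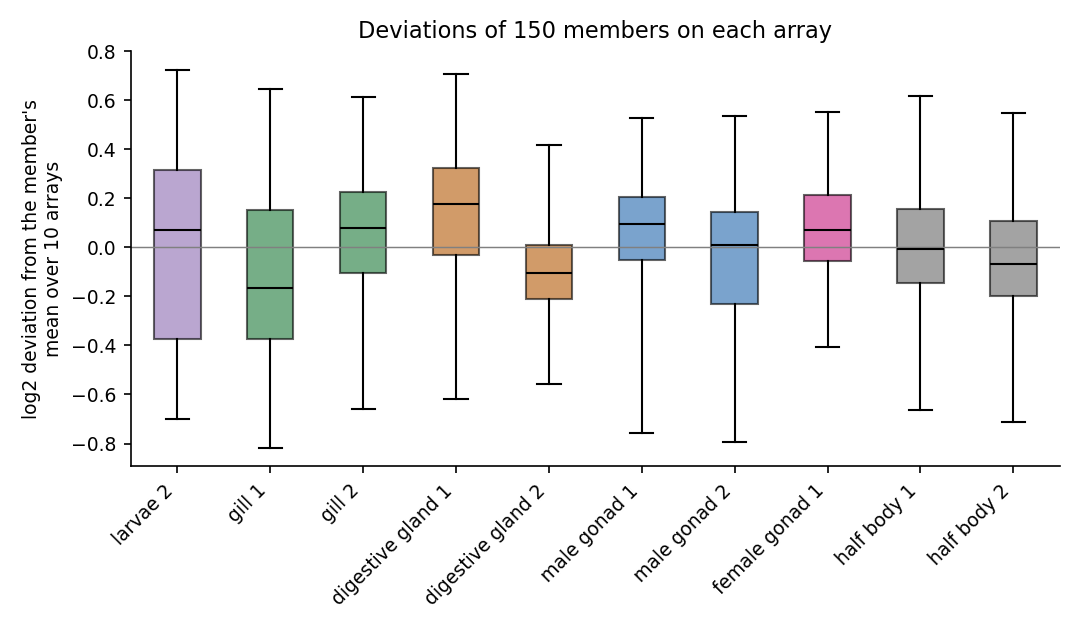
Each box shows, for 1 of 10 arrays (horizontal axis), the deviations of the 150 members from their own mean over the 10 arrays, in log2 units (vertical axis). Boxes give the quartiles, the line in them the median and the whiskers the full span; larvae 2 and gill 1 spread most, with SDs of 0.39 and 0.36.

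Some arrays of different tissues on the same slide lay closer to each other than the 2 arrays of a group on different slides. The half-body arrays both carry replicate number 1 in their titles, and they are called 1 (female) and 2 (male) here by order. In gill and digestive gland, too, array 1 is female and array 2 male by 1 label, so sex, slide and sample cannot be told apart in these 3 groups. Over the 150 members the difference between arrays 1 and 2 had an SD of 0.38 in gill, 0.35 in digestive gland, 0.39 in male gonad and 0.31 in half-body samples. Digestive gland 1 and male gonad 1, on the first slide, differed with an SD of 0.22, and digestive gland 2 and male gonad 2, on the second, with an SD of 0.25. Half-body 1 and male gonad 1, both on the first slide, differed with an SD of 0.23. Gill 2 and larvae 2, which share the second slide, were farther apart, with an SD of 0.46. Digestive gland 1 exceeded digestive gland 2 in 114 of the 150 members, and the median difference over all 150 was 0.31. Gill 1 lay above gill 2 in 50, with a median difference of -0.21 over all 150. In the 227 other bright EY sequences, digestive gland 1 was the higher in 137 and gill 1 in 78. The deviations of digestive gland 1 correlated with those of male gonad 1 at r = 0.59 across members, and those of digestive gland 2 with those of male gonad 2 at 0.44, while digestive gland 1 and 2 correlated at -0.21 and male gonad 1 and 2 at -0.24. Half-body 1 and male gonad 1 correlated at 0.48, gill 1 and 2 at 0.31 and half-body 1 and 2 at 0.14. Arrays sharing a slide did not in general deviate together. Pairs on the second slide ran from -0.525 for larvae 2 with female gonad 1 to 0.44 for digestive gland 2 with male gonad 2. Gill 2 correlated at -0.42 with male gonad 2 and at -0.33 with digestive gland 2, against 0.22 with female gonad 1. These correlations are across 150 sequences, which are not independent, and deviations from a mean of 10 arrays are by construction correlated at about -0.11. In the other bright EY sequences, which the rule left out for their wider ranges or gaps, the differences between arrays 1 and 2 had SDs of 0.67 in gill, 0.62 in digestive gland, 0.81 in male gonad and 0.57 in half-body samples.

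On some arrays the deviations followed the brightness of the member. Per log2 unit of a member's mean level, the deviation grew by 0.10 on digestive gland 1 and fell by 0.08 on digestive gland 2 and by 0.06 on male gonad 2. The slopes had the same sign in the other bright EY sequences, at 0.13, -0.07 and -0.16. The levels of the members were spread with an SD of 1.48 on digestive gland 1, against 1.24 on digestive gland 2 and 1.28 on male gonad 2. Male gonad 2, half-body 2 and digestive gland 2 had 5705, 5383 and 5349 of the 13654 probes well above background, against 4429 to 4877 on the other arrays used. The slope on half-body 2 was -0.02 in the members and -0.08 in the other bright EY sequences. The part of these probe numbers in the slopes was not tested.

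The 2 probes of a member did not always trace the same pattern. Over the 10 arrays the Pearson correlation of the 2 probes had a median of 0.76 over the 150 members. It exceeded 0.5 in 111 and lay below 0 in 12. In 12 members at least 1 of the 2 probes had a range of 1.5 or more on its own, a value that the 2-probe mean of every member stays below. The steadiest member, EY434279, is a case in which opposite moves of the probes cancel. Its brighter probe was at 1.76 on larvae 2, 1.41 and 2.02 on gill, 2.16 and 1.76 on digestive gland, 2.02 and 1.92 on male gonad, 2.16 on female gonad and 2.16 and 1.72 on half-body samples. Its other probe was at -0.43 on larvae 2, 0.30 and 0.00 on gill, -0.67 and -0.42 on digestive gland, -0.25 and -0.22 on male gonad, -0.25 on female gonad and -0.65 and -0.34 on half-body samples. The probes had ranges of 0.75 and 0.97 and correlated at -0.59. EY436786, with a range of 0.61 for the mean, had probes ranging over 1.37 and 1.53 that correlated at -0.68. On gill 1 its probes were at 0.06 and 0.46, whereas on gill 2 they were at 1.253 and -0.81. In EY433805 the brighter probe ranged over 0.56 and the other over 2.35, from -3.79 on male gonad 1 to -1.44 on male gonad 2. EY436221 likewise combined ranges of 1.23 and 1.76. By contrast, the 2 probes of EY434048 had ranges of 0.46 and 0.42 and correlated at 0.90.

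The names of the probes end in either of a pair of design numbers. Of the members, 73 had 1 probe of each design, with a median correlation of 0.86 between the probes, and 77 had both probes of the same design, with a median of 0.66; in 62 of these 77 the probes carried adjacent numbers. Whether probes overlap on their sequence was not analysed here.

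**Figure D3:**
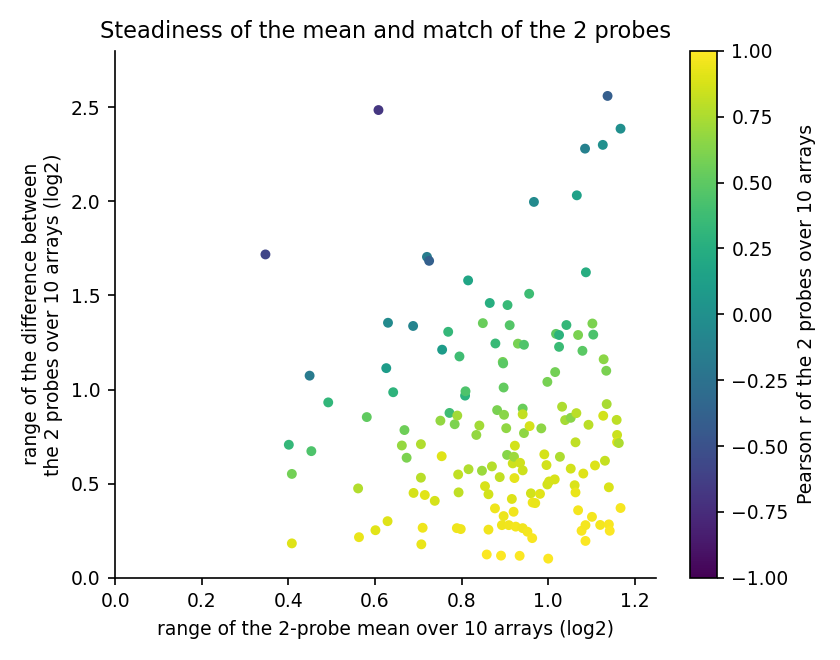
Each point is 1 of the 150 members; the horizontal axis is the range of its 2-probe mean over 10 arrays and the vertical axis the range of the difference between its 2 probes, both in log2 units, and the colour gives the correlation of the 2 probes. A small range of the mean is found both with probes that match, as in EY434048, and with probes that move against each other, as in EY434279.

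Further probes of the same sequences, which the rule did not use, were measured on the same arrays. These are dimmer by construction, and they share RNA and arrays with the 2 probes that made the choice. Of the members, 138 had further probes, 282 in all, of which 229 were well above background on all 10 arrays, 21 on some and 32 on none. Over the 226 with values on all 10 arrays the range had a median of 1.28 (quartiles 1.02 and 1.82), and 137 of them ranged below 1.5. Over the 163 that exceeded 1000 throughout, the median range was 1.15 and 126 ranged below 1.5. Among the other bright EY sequences, 174 further probes exceeded 1000 throughout, with a median range of 1.81, and 62 of them ranged below 1.5.

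EY436072 was the member whose further probes were steadiest, with 2 of them ranging over 0.47 and 0.55, against 0.86 for the mean of its brightest 2. The 3 further probes of EY433645 ranged over 0.60 to 0.69, next to 0.63 for its 2-probe mean, and the single further probe of EY434083 ranged over 0.75. Some dim further probes swung widely. In EY433994, whose 2-probe mean ranged over 0.97, the further probe CUST_2058_PI415929191 was at -7.36 on larvae 2, -9.51 and -7.25 on gill, -8.18 and -6.51 on digestive gland, -8.95 and -6.66 on male gonad, -7.11 on female gonad and -8.62 and -4.72 on half-body samples, a range of 4.80. That probe was highest on half-body 2 and lowest on gill 1, and the second further probe of EY433994 ranged over 4.43 with the same 2 arrays at its ends. In EY435533 and EY434352 1 further probe each ranged over 4.12 and 4.03, while the others of the same sequences ranged over 0.93 to 1.31. None of these 4 wide-ranging probes was above 1000 on all 10 arrays.

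Differences between groups were estimated for the 1533 sequences, EY or not, whose 2 brightest probes were both well above background throughout some group, with limma's moderated tests on the 10 arrays and Benjamini-Hochberg adjustment over all sequences tested. The rule used these same arrays, so the choice limits the number of members called, the sizes of their differences and their residual SD, and nothing is read from these. In the moderated F test across all 6 groups, 0 of the 150 members were called at an adjusted p below 0.05, with 0 at an unadjusted p below 0.05 and a smallest adjusted p of 0.482, against 1.65% called over all 1516 sequences with a value in every group. With slide as a block limma called 0 of the 1516, and 355 had an unadjusted p below 0.05. The residual SD between arrays of a group had a median of 0.25 in the members, 0.41 in the other bright EY sequences and 0.59 in all sequences tested.

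Larvae 2 was compared with the mean of gill, digestive gland and both gonads. Over the members the log2 differences had a median of 0.05 and ran from -0.83 to 0.78, with 77 of 150 above 0. Over all 1516 sequences tested the median was 0.13 and the differences ran from -9.65 to 5.61, with 807 above 0. limma called 0 members, with 0 at an unadjusted p below 0.05, against 4.82% called over all sequences. With slide as a block limma called 0 of all sequences, and 411 had an unadjusted p below 0.05. EY434503 was the lowest, at 0.91 on larvae 2, against 1.72 and 2.02 on gill, 1.86 and 1.51 on digestive gland, 1.61 and 1.79 on male gonad and 1.71 on female gonad, a difference of -0.83 ± 0.36 (SE, limma adjusted p = 0.295). Larvae 2 lay below every tissue array in EY434503, and half-body samples were next, at 1.43 and 1.09. EY433749 was at 0.36 on larvae 2, against 0.72 and 1.11 on gill, 1.40 and 1.01 on digestive gland, 1.24 and 1.03 on male gonad and 1.38 on female gonad, a difference of -0.80 ± 0.38 (SE, limma adjusted p = 0.333). EY436400 was at 3.37 on larvae 2, against 2.34 and 2.94 on gill, 2.85 and 2.24 on digestive gland, 2.73 and 2.26 on male gonad and 2.70 on female gonad, a difference of 0.78 ± 0.44 (SE, limma adjusted p = 0.411). In EY436400 the nearest tissue array was gill 2. EY434230 was at 3.25 on larvae 2, against 3.04 and 2.87 on gill, 2.43 and 2.11 on digestive gland, 2.54 and 2.31 on male gonad and 2.32 on female gonad, a difference of 0.75 ± 0.34 (SE, limma adjusted p = 0.305). Gill came closest to larvae 2 in EY434230 as well. With 1 larval array the 95% intervals were wide, reaching a median of 0.94 to either side, and they lay within 1 log2 unit of 0, a 2-fold difference, for 12 of the 150 members. A 2-fold difference between larvae and tissues is therefore within the interval for the other members. Starting material differed as well, 200 ng for larvae and 500 ng for tissues, so RNA amount and stage cannot be told apart.

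The gill comparison set its 2 arrays against digestive gland and both gonads. The members' differences had a median of -0.06 and ran from -0.70 to 0.72, with 66 of 150 above 0. Over all 1529 sequences tested the median was 0.15 and the span -11.34 to 7.21, with 860 above 0. limma called 0 members, with 2 at an unadjusted p below 0.05, against 4.45% called over all sequences, 68 in number, and with slide as a block limma called 27. EY435963 was at 2.81 and 2.73 on gill, against 2.24 and 1.80 on digestive gland, 2.07 and 1.96 on male gonad and 2.11 on female gonad, a difference of 0.72 ± 0.27 (SE, limma adjusted p = 0.247). Both gill arrays exceeded all 5 arrays of the other tissues, and larvae 2 was at 2.86. EY436549 was at 2.64 and 2.79 on gill, against 2.19 and 1.68 on digestive gland, 2.07 and 1.76 on male gonad and 2.25 on female gonad, a difference of 0.68 ± 0.29 (SE, limma adjusted p = 0.293). EY436969 was at -0.97 and -1.24 on gill, against -0.17 and -0.46 on digestive gland, -0.34 and -0.41 on male gonad and -0.52 on female gonad, a difference of -0.70 ± 0.26 (SE, limma adjusted p = 0.247). The gill arrays lay below all others except larvae 2, at -1.17. EY434109 was at -0.20 and 0.24 on gill, against 0.96 and 0.45 on digestive gland, 0.80 and 0.70 on male gonad and 0.64 on female gonad, a difference of -0.68 ± 0.30 (SE, limma adjusted p = 0.304). The interval lay within 1 log2 unit of 0 for 62 members. The sign of the members' median was not stable. It was 0.11 with the 75th percentile of all probes as the scale (0.32 for all sequences). With the 75th percentile of probes detected on all 10 arrays it was 0.02, and in the deposited table -0.47. It was 0.07 with slide as a block and 0.02 without gill 1. Gill 1 is alone on its slide, so the slide block fits it exactly. In every fit with slide as a block, gill therefore rests on gill 2 alone.

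Of the 5 comparisons, those of the gonads and of digestive gland had the narrowest spans of members' differences. For digestive gland against gill and both gonads the differences ran from -0.46 to 0.52 with a median of 0.01, and 149 of 150 were below 0.5 in size. With the 75th percentile of all probes the median was -0.22 for the members and -0.34 for all sequences, and with slide as a block it was -0.08 for the members. The members' median was -0.13 without digestive gland 1 and 0.15 without digestive gland 2. For all sequences it was -0.07 and -0.09, so the members' median near 0 lies between 2 arrays that differ. limma called 0 members, 0 at an unadjusted p below 0.05, against 0.785% over all sequences. With slide as a block limma called 0 of all sequences, and 241 had an unadjusted p below 0.05. The largest positive difference was in EY434889, at -1.24 and -1.21 on digestive gland, against -1.67 and -2.07 on gill, -1.30 and -1.55 on male gonad and -1.93 on female gonad, a difference of 0.52 ± 0.28 (SE, limma adjusted p = 0.955). EY433981 had a difference of 0.45 ± 0.28 (SE, limma adjusted p = 0.955). EY435641 and EY434793 had differences of -0.46 ± 0.29 (SE, limma adjusted p = 0.955) and -0.38 ± 0.28 (SE, limma adjusted p = 0.955). In EY435641 the arrays of digestive gland, at -1.55 and -1.02, overlapped those of male gonad, at -1.43 and -1.254. EY434793 was at 2.29 and 1.93 on digestive gland, against 2.77 and 3.02 on gill, its highest tissue.

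For the gonads against gill and digestive gland the differences ran from -0.49 to 0.40 with a median of 0.07, all 150 were below 0.5 in size, and 98 were above 0. Of all 1529 sequences tested, 743 were above 0. limma called 0 members, 0 at an unadjusted p below 0.05, against 0.785% over all sequences. With slide as a block limma called 0 of all sequences, and 169 had an unadjusted p below 0.05. EY436535 was at -2.20 and -1.80 on male gonad and -1.60 on female gonad, against -2.66 and -2.13 on gill and -1.88 and -2.12 on digestive gland, a difference of 0.40 ± 0.28 (SE, limma adjusted p = 0.898). EY436724 had a difference of 0.37 ± 0.28 (SE, limma adjusted p = 0.912), EY436221 of -0.49 ± 0.27 (SE, limma adjusted p = 0.726) and EY434737 of -0.48 ± 0.26 (SE, limma adjusted p = 0.71). The interval lay within 1 log2 unit of 0 for 125 members here and for 115 in the comparison of digestive gland.

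Half-body samples were compared with the mean of the 4 dissected tissues. The members' differences ran from -0.59 to 0.50 with a median of -0.06, and 147 of 150 were below 0.5 in size. With the 75th percentile of all probes the median was -0.41 for the members and for all sequences, and with quantile normalization it was 0.01 for the members. limma called 0 members, 0 at an unadjusted p below 0.05, against 0% over all 1529 sequences, of which 162 had an unadjusted p below 0.05. EY433812 was at -1.70 and -2.11 on half-body samples, against -1.23 and -1.12 on gill, -1.18 and -1.57 on digestive gland, -1.09 and -1.48 on male gonad and -1.41 on female gonad, a difference of -0.59 ± 0.29 (SE, limma adjusted p = 0.585). Both half-body arrays lay below every tissue array in EY433812. EY436221 was at -0.48 and -0.39 on half-body samples, against 0.69 and 0.25 on gill, 0.18 and 0.46 on digestive gland, -0.21 and 0.16 on male gonad and -0.17 on female gonad, a difference of -0.58 ± 0.28 (SE, limma adjusted p = 0.58). EY436009 was at -2.37 and -2.20 on half-body samples, against -2.51 and -2.66 on gill, -3.32 and -2.47 on digestive gland, -3.31 and -2.88 on male gonad and -2.56 on female gonad, a difference of 0.50 ± 0.33 (SE, limma adjusted p = 0.672). EY433899 had a difference of 0.43 ± 0.32 (SE, limma adjusted p = 0.712), with its half-body arrays at -2.55 and -3.17. The interval lay within 1 log2 unit of 0 for 113 members. In all 5 comparisons together, 7 of the 150 members had every interval within 1 log2 unit of 0. These comparisons share arrays, so their values are not independent of each other.

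**Figure D4:**
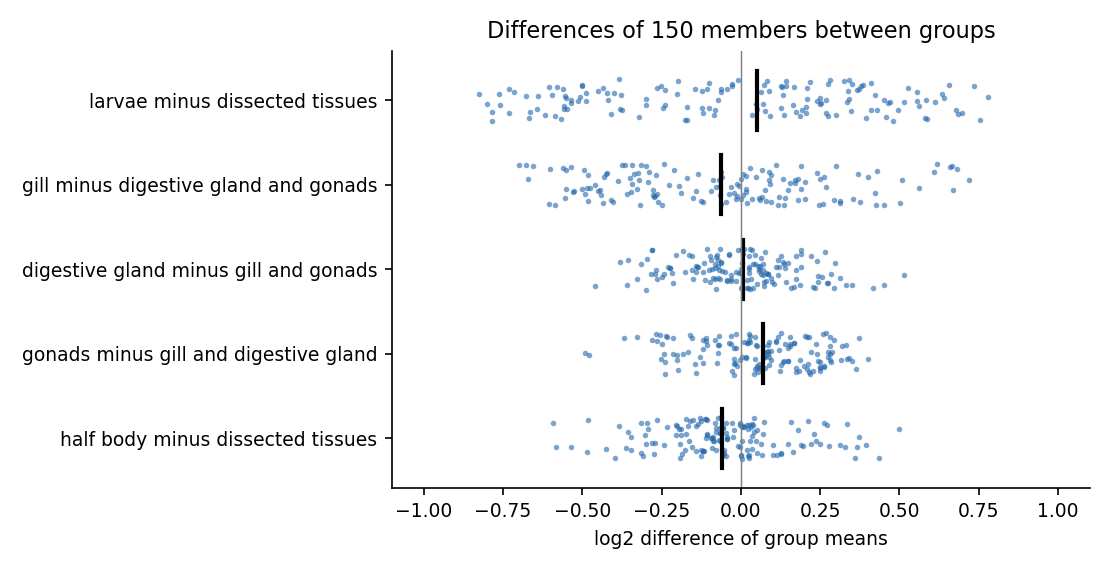
Points are the log2 differences of the 150 members (horizontal axis) in 5 comparisons of group means (rows), positive where the first-named group is higher, and black bars are their medians. The differences run from -0.83 to 0.78 for larvae and from -0.49 to 0.40 for the gonads.

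Steadiness here is relative to the other bright EY probes on the same array. Before scaling, the mean log2 signal of the member probes ran from 14.70 on gill 2 to 15.93 on male gonad 2, a span of 1.23. The mean of the 5 brightest positive control probes ran from 12.17 on half-body 1 to 15.04 on half-body 2, a span of 2.86, and these 2 arrays are of the same group. Members minus positive controls was 3.26 on half-body 1 and 0.64 on half-body 2, and 0.95 to 1.80 on the other 8 arrays. With the 75th percentile of all probes as the scale, 9 sequences met the brightness, range and gap criteria in place of 239, and 4 of them were among the 150 members. With the positive controls as the scale, 1 sequence met them and 0 of the 150 members did. The labels do not say how much control RNA each sample received, so no amount of transcript per unit of RNA can be drawn from these values. On larvae 1 the positive controls averaged 10.77 and the member probes 0.86.

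**Figure D5:**
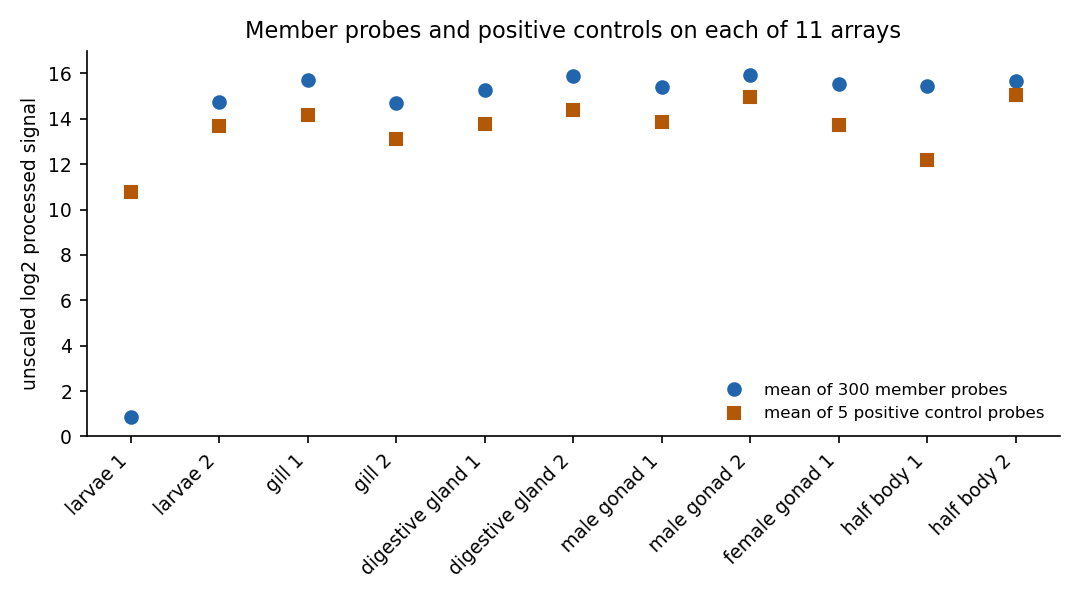
Points show unscaled mean log2 processed signal (vertical axis) on each of 11 arrays (horizontal axis) for the 300 member probes (circles) and the 5 brightest positive control probes (squares). Members range from 14.70 to 15.93 over 10 arrays, and are at 0.86 on larvae 1; the controls range from 12.17 to 15.04 on the same 10 arrays.

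In the log2 value table that the authors deposited, 134 members have values for both probes on all 10 arrays. Scaled in the same way, their ranges had a median of 2.71, and 37 were below 1.5. Without the gill 1 column the median was 0.89 and 131 were below 1.5. The gill 1 column correlated at r = 0.20 with the scanner signal over the 284 member probes with values, whereas the other 9 columns correlated at 0.957 to 0.999. The table holds the same hybridisations and adds no independent array.

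Members were unevenly spread over the EY identifiers. With the 2864 identifiers put in number order and cut into 4 parts of 716 each, 62 members fell in the lowest numbers, 21 and 28 in the middle parts and 39 in the highest numbers. The lowest part held 41.3% of members and 36.9% of all bright EY sequences. Bright sequences were thus more common at the low numbers too, and 44.6% of them were members there, against 30.9%, 40.0% and 39.0% in the following parts.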

How the data were processed

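Per the labels' protocols, total RNA was labelled with Cy3 and hybridised to Agilent arrays. Per the file headers, the scanner files came from Agilent Feature Extraction 10.5.1.1, and the processed signal in them is a deposited intensity on a linear scale. The authors also deposited a table of log2 values, whose normalization no label or header records and whose gill 1 column departs from the scanner file. The members and the named sequences were chosen with earlier results of these data known. Control spots were used only for the positive control values, the scale made from them and the normexp background step. Outlier-flagged spots of the other probes were left out of the signals, except in an alternative that kept them. Spots of a probe were averaged, and each array was scaled as the opening states. Named with values were the steadiest, the threshold, the most discordant and the extreme members of each comparison, and those extreme in further probes. Also named were those with a probe well above background on larvae 1. The others brightest there were not called well above background by the scanner software. Group means were fitted with limma 3.58.1 in R 4.3.3 over 10 arrays, with 4 residual degrees of freedom, and the code was tested on simulated data. Tables were made in Python 3.11.15 with pandas 2.3.3. The normexp alternative used median signals, since the files hold no mean signals. Alternatives covered scaling, background, filter, probe summary, left-out arrays, slide block and replicate block. The number of arrays limits the precision. Same-numbered arrays did not deviate together in every pair of groups, so the main fit has no replicate block. It has no slide block either, so its p-values take arrays that share a slide as independent.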

Additional observations from a re-analysis of the deposited data

Results flagged for a closer look

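Larvae 1 took no part in the comparisons, and signal above background was present in its data. Of the 300 member probes, 3 were well above background there, at processed signals of 16.95 in EY434162, 6.65 in EY436586 and 5.45 in EY434467. Over all 13654 probes the number was 132, a similar share, so the 3 are not particular to the members. The brightest positive control of larvae 1 reached a signal of 15245.4, against 41193 to 237541 on the other 10 arrays. No group held 4 or more arrays, so outlying arrays within groups were not tested.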

How the results depend on the processing

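Counts of sequences called by limma depended on the processing, and the number tested differed between filters. For larvae 1516 sequences were tested in the main fit, 3282 with no filter and 618 with the bright filter. For gill the numbers were 1529, 3302 and 630. A higher or lower count with another filter is therefore not a higher or lower share. In the test across all groups (25 called) there were 44 with the 75th percentile of probes detected on all arrays, 14 with normexp, 0 with the deposited table, 61 with the bright filter, 4 with all 11 arrays, 0 with the slide block and 12 at an adjusted p of 0.01. For larvae (73 called) there were 4 with the 75th percentile of all probes, 21 with normexp, 0 with the deposited table, 153 with no filter, 0 with all 11 arrays, 0 with the slide block and 0 at 0.01. For gill (68 called) there were 43 with the 75th percentile of all probes, 2 with the deposited table, 38 with the bright filter, 10 with all 11 arrays, 27 with the slide block and 26 at 0.01. For digestive gland (12 called) there were 5 with quantile normalization, 5 with normexp, 6 with no filter, 7 with the median of all probes, and 0 with the 75th percentile of all probes, the deposited table, all 11 arrays, the slide block and 0.01. For the gonads (12 called) there were 2 with the 75th percentile of all probes, 6 with no filter, 23 with the bright filter, 2 with the median of all probes, and 0 with normexp, the deposited table, all 11 arrays, the slide block and 0.01. For half-body samples (0 called) there were 4 with the bright filter, 1 with the median of all probes and 4 with a trended, robust fit. With the replicate number as a block, calls numbered 14 across all groups, 38 for larvae, 66 for gill, 0 for digestive gland and 5 for the gonads, with the numbers taken from the titles, where both half-body arrays carry 1. Over all sequences tested, differences between arrays 1 and 2 correlated at 0.77 for digestive gland with male gonad, whose numbers follow slides 1 and 2. They correlated at 0.00 for gill with either, gill 1 being on slide 3. Over the 150 members the values were 0.50 for digestive gland with male gonad, -0.33 for gill with digestive gland and -0.10 for gill with male gonad. Numbers and slides thus cannot be told apart as a source of pairing, and half-body samples were not part of this check. With slide as a block, gill 1 is fitted exactly, being alone on slide 3, so gill rests on gill 2 there. Members called stayed at 0 except with the median of all probes. There EY433812 was called for larvae (1 member, difference 3.31) and EY434316 for gill (1 member, 3.22, limma adjusted p = 0.0123). Both differences drew on further probes that were not well above background on every array. In EY434316 the further probe CUST_7285_PI415929191 was at -2.505 and -3.39 on gill. It was at -8.52 and -7.695 on digestive gland, -11.75 and -9.345 on male gonad and -7.50 on female gonad. On larvae 2 it was at -10.37 and on half-body samples at -6.19 and -6.71. That probe was well above background on 8 of the 10 arrays. In EY433812 the further probe CUST_5910_PI415929191 had no value on larvae 2. Its median there was taken over fewer probes than on the other arrays, so the difference of 3.31 compares unlike sets of probes. Leaving out 1 array at a time gave 0 to 52 calls across all groups, 0 to 64 for larvae, 32 to 72 for gill, 0 to 18 for digestive gland, 0 to 13 for the gonads and 0 to 4 for half-body samples, with 0 to 0 members called; larvae had no value without larvae 2. Sequences meeting the criteria (239) numbered 9 with the 75th percentile of all probes, 64 with the deposited values and 1 when scaled to the positive controls. The last was a choice made after seeing the data. These held 4, 37 and 0 of the 150 members. With the 75th percentile of probes detected on all 10 arrays, normexp and quantile normalization they numbered 233, 237 and 248. The 150 kept there shared 138, 139 and 107 with the members. Brightness limits of 500 and 2000 gave 244 and 226, with 135 and 140 shared. The mean of all probes above the limit gave 251, with 135 shared. Leaving out 1 array gave 227 to 278, with 122 to 147 of the 150. The median range of further probes (1.28) was 2.12 with the 75th percentile of all probes, and the SD between gill replicates (0.38) was 3.53 with the deposited table. Among the named members, the larval difference of EY436400 and EY434230 changed sign with all 11 arrays, and differences of EY436400, EY436969, EY434109, EY435963, EY436549, EY434889, EY433981 and EY436535 changed sign with the deposited table. The causes were not tested.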
